A study of Mus musculus with 8 samples.

Results

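The replication-dependent histone genes encode the histones that package newly made DNA. They were chosen by gene symbol, as the genes of the clustered histone loci with at least 10 counts in at least 2 of 8 libraries. Of 43346 genes listed per library, 67 matched by name and 65 passed, namely 6 H1, 19 H2A, 16 H2B, 11 H3 and 13 H4 genes. The Hist1 cluster holds 53 of them (mm10 chromosome 13, 21715763 to 23934851), the Hist2 cluster 7 (chromosome 3, 96219865 to 96269141), the Hist3 cluster 3 (chromosome 11, 58948920 to 58956830) and the Hist4 locus 1 (chromosome 6, 136801553 to 136804415). The pseudogene Hist1h2al lies apart on chromosome 13, and 62 of the 65 are annotated as protein coding. Of the matching genes that did not pass, Hist2h2aa1 and Hist2h3c1 were listed at 0 counts in all 8 libraries. All of their 75-base windows are found in other annotated genes too, so these counts may depend on how shared reads were counted.

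RNA was sequenced from mouse embryonic stem cells of a 129xC57BL/6 background, grown on gelatin in serum with LIF, in 4 groups of 2 libraries. Every group, wild type included, carries Rosa26Cre-ERT2/BirA-V5, which provides a tamoxifen-dependent Cre and the biotin ligase BirA. The TRIM71 knockout is TRIM71-/- and lacks an RNA-binding protein of the early embryo. The mutant of the Mbnl1 3'UTR carries 3'UTR(mut) on both alleles of Mbnl1, a gene for a splicing regulator. Cells of the Mbnl1 overexpression group were stably transfected with MBNL1::T2A::Puromycin, which joins MBNL1 to puromycin resistance through a self-cleaving peptide. The wild-type cells carry neither allele nor the transgene. Whether libraries of 1 group are separate clones or cultures is not in the labels, so clone and genotype cannot be told apart, and p-values cover no more than the spread between the libraries at hand. The questions were how histone mRNA differs without TRIM71, with the altered Mbnl1 3'UTR and with more Mbnl1.

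Histone mRNAs of this kind are made mainly in S phase, when chromatin is copied. They are unusual among animal mRNAs in that most end in a conserved stem-loop and carry no poly(A) tail. The stem-loop is bound by SLBP, the U7 snRNP directs the cut after it, and the coactivator NPAT drives transcription of the clustered genes. The core histones form the nucleosome as H2A-H2B and H3-H4 dimers, and H1 binds the linker DNA between nucleosomes. Embryonic stem cells cycle fast with a short G1 phase and hold abundant histone mRNA. The libraries were made from total RNA, so the method does not depend on a tail.

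The stem-loop is the sequence that defines these mRNAs, so its forms are shown for 8 members. Annotated transcripts (GENCODE M21) were searched for a fixed histone pattern with the 6-base arm GGYYYT, the 4-base loop TYTN and the arm ARRRCC. Y stands for C or T, R for A or G and N for any base. Pairing between the arms was not part of the search. The letters are DNA, and capitals mark the arms of the stem.
Hist1h1e: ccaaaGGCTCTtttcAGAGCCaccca
Hist1h1t: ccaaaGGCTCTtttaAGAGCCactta
Hist2h2ac: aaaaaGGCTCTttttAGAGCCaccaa
Hist3h2ba: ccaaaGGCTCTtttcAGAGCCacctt
Hist1h3g: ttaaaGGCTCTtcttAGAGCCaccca
Hist1h4h: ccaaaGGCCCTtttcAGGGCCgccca
Hist1h4b: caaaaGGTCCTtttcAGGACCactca
Hist1h4a: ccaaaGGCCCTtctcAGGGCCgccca

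The stem-loop was found in 42 of the 65 members (64.6%) and in 26 of 21839 other protein-coding genes (0.119%). The other genes include Hist2h2aa1 and Hist2h3c1, histone genes that hold the element but did not pass the count rule. By class, the stem-loop was found in 4 of 6 H1, 10 of 19 H2A, 8 of 16 H2B, 8 of 11 H3 and 12 of 13 H4 genes. The arms separated H4 from the rest. All 30 of the H1, H2A, H2B and H3 genes with the element held the arm GGCTCT, while H4 genes held GGCCCT in 10 cases and GGTCCT in 2. Many annotated histone transcripts stop near the coding end, so the lack of a match says only that these letters are not in the annotated transcript. Of the 42 with the element, 21 end within 100 bases of it and 10 run on for more than 500 bases.

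The promoters of these genes share elements too. RefSeq promoter sequences (GRCm38.p6, 250 bases before to 50 after the start) were matched for 57 members and searched on both strands. The octamer ATTTGCAT was present in 7 of 17 H2A and 4 of 13 H2B promoters and in 1.74% of all 32851 promoters. CCAAT was present in every H1, H2A, H2B and H3 promoter matched and in 3 of 12 H4 promoters, against 37.4% of all promoters. TATAAA was present in 59.6% of the members and in 13.6% of all promoters. AAACACA, the H1 box, was present in 5 of 6 H1 promoters and in 7.18% of all promoters. Octamers are shown for a pair of divergent genes that stands out in the knockout and for an H2B gene that was high in every group. Each is read along its own gene, with the octamer or its reverse complement in capitals.
Hist1h2aa: tgctgggtgcATGCAAATaaggggaatt
Hist1h2ba: aattccccttATTTGCATgcacccagca
Hist1h2bb: tgagtctcttATTTGCATaaagcctttg
The windows of Hist1h2aa and Hist1h2ba are 1 stretch of DNA read from either side, because these genes start 306 bases apart and point away from each other.

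Total counts ranged from 75056306 to 86508533 per library, and a count of 3 corresponds to 0.0347 to 0.04 CPM (normalized read counts per 1e6, scaled here by TMM). Differences between the libraries of a group gave a chi-square per degree of freedom of 6.205 to 29.11, above the value of 1 from counting error alone. Trim71 stood at 101 and 105 CPM in the knockout, against 630 and 628 CPM in wild type (log2 change -2.61, adjusted p = 1.62e-18, edgeR quasi-likelihood test). Mbnl1 stood at 48.8 and 50.9 CPM in the knockout, 28.6 and 27.5 CPM in the mutant and 193 and 195 CPM in overexpression, against 25.9 and 26.1 CPM in wild type, and the mutant change did not pass (log2 change 0.11, adjusted p = 0.086). Embryonic stem cell markers summed to between 4969 and 5548 CPM in the altered groups and to between 4411 and 4414 CPM in wild type. The 8 primitive endoderm markers summed to 137 to 140 CPM in the knockout, 296 to 343 CPM in the mutant and 285 to 287 CPM in overexpression, against 185 to 186 CPM in wild type. Fibroblast markers summed to 12.1 to 13.2 CPM in the knockout, 5.46 to 5.73 CPM in the mutant and 7.81 to 8.50 CPM in overexpression, against 5.60 to 5.73 CPM in wild type, with Postn, Dcn and Lum at or near 0. Of the 8 primitive endoderm markers 7 fell and 1 rose in the knockout, 5 rose and 1 fell in the mutant, and 2 rose and 6 fell in overexpression. Embryonic stem cell markers numbered 10, of which 7 rose and 1 fell in each altered group. Among 6 fibroblast markers tested, 4 rose and 0 fell in the knockout, and 1 rose and 2 fell in the mutant. In overexpression 3 of these fibroblast markers rose and 3 fell. As background to the marker counts, knockout cells had 24.2% of all tested genes called higher, with 20.9% called lower. Mutant cells had fewer calls, at 8.32% higher against 7.69% lower, while overexpression cells stood at 27.7% against 27.2%. The marker lists were not compared with these shares by a test. The part of cells that carry such markers in the histone results was not tested. Fewer cells in S phase and less histone mRNA per cell cannot be told apart in bulk RNA.

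Histone mRNA took 0.812 to 0.957% of all counts. Per kilobase of coding sequence, the highest level in wild type was that of the H4 gene Hist1h4d (1768 CPM per kb). It was followed by the linker histone genes Hist1h1a (1097 CPM per kb) and Hist1h1d (1025 CPM per kb), and by the H2B gene Hist1h2bb (979 CPM per kb). The leading H3 gene was Hist1h3e at 713 CPM per kb, and the leading H2A gene was Hist1h2ak at 348 CPM per kb. Counts are per whole gene, and the annotated exons span 1138 bases in Hist1h4d and 7425 in Hist1h1d, against 309 and 663 coding bases. This order may thus depend on annotated length. Some H2A genes have few 75-base windows found in no other gene (10.7% in Hist1h2ai, 13.2% in Hist1h2af), so their levels depend on how shared reads were counted. No class rested on 1 gene. The first 3 genes gave 70.7% of the H1 level, 48.5% of H2A, 49.2% of H2B, 47.3% of H3 and 48.0% of H4 in wild type. Genes of low level included Hist1h1t and Hist1h2ba, the testis H1 and H2B variants, at 5.1 and 1.6 CPM per kb.

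The 5 classes were each highest in the knockout. Summed H1 mRNA reached 2835 and 2879 CPM in the knockout, 2409 and 2597 CPM in the mutant and 2500 and 2603 CPM in overexpression, against 2607 and 2590 CPM in wild type. Summed H2A mRNA reached 706 and 705 CPM in the knockout, 657 and 691 CPM in the mutant and 559 and 567 CPM in overexpression, against 618 and 578 CPM in wild type. Summed H4 mRNA reached 2493 CPM in both knockout libraries, 2218 and 2398 CPM in the mutant and 2056 and 2117 CPM in overexpression, against 2343 and 2206 CPM in wild type. In these 3 classes both knockout libraries lay above both of wild type. The same held for H2B, at 1870 and 1877 CPM in the knockout against 1735 and 1698 CPM in wild type. It held for H3 too, at 1550 and 1610 CPM in the knockout against 1430 and 1372 CPM in wild type. Summed H2B mRNA reached 1589 and 1731 CPM in the mutant and 1600 and 1669 CPM in overexpression. For H3 these sums were 1409 and 1456 CPM in the mutant and 1301 and 1357 CPM in overexpression. Both overexpression libraries lay below both of wild type for H2A, H2B, H3 and H4. Both mutant libraries lay above both of wild type for H2A alone. All members together stood 10.7% above wild type in the knockout, 0.131% below it in the mutant and 4.94% below it in overexpression. These sums run over members chosen with earlier results known, so they are a description and were given no test.

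**Figure D1:**
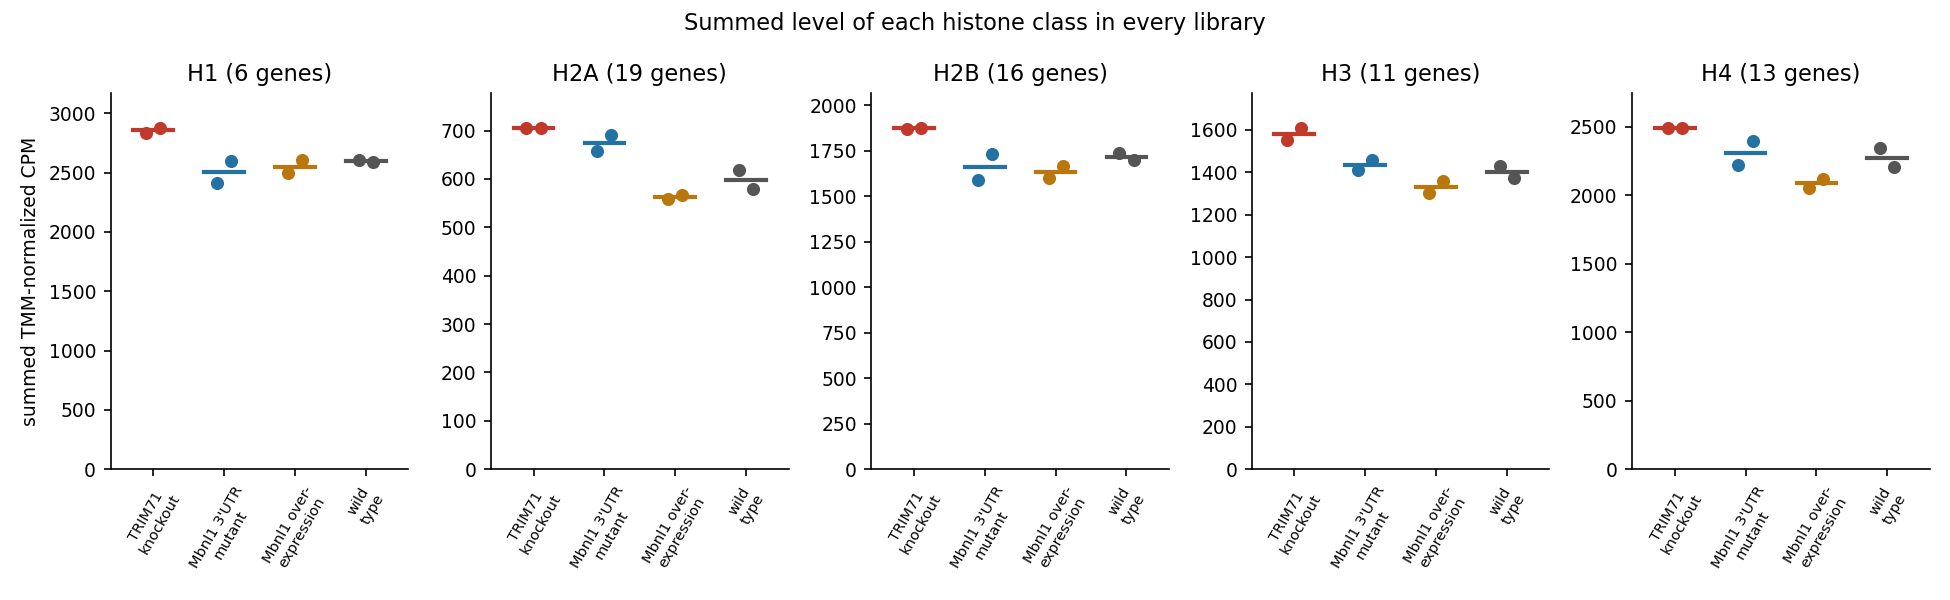
Summed TMM-normalized CPM of each histone class (vertical axis, from 0) in each library of the 4 groups, with the line at the mean of 2 libraries. Both knockout libraries lie above both wild-type libraries in all 5 classes, for example at 706 and 705 CPM against 618 and 578 CPM for H2A.

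Without TRIM71, some genes of every histone class were called higher, mostly by a small amount, with 3 members at 2-fold or more. Of 64 members tested, 33 rose and 1 fell at an adjusted p under 0.05 (edgeR quasi-likelihood test, adjusted over all 18055 genes tested), and 30 did not pass. Over all genes tested, 45.1% were called, 24.2% higher and 20.9% lower. The median log2 change was 0.17 for the members and -0.01 for all genes, and 56 of the 64 changes were positive. Both knockout libraries lay above both wild-type libraries for 51 members, where 37% of all genes did so. The count of rises lay between 23 and 42 when 1 library was left out. Among the 36 members with at least 50% of their 75-base windows found in no other annotated gene, 22 rose and none fell. The other 28 share most of their sequence, and reads between such copies may be assigned to either.

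The rises reached all 5 classes, with 4 of 6 H1, 9 of 19 H2A, 7 of 15 H2B, 5 of 11 H3 and 8 of 13 H4 genes tested. Class medians lay between 0.14 and 0.23 on the log2 scale. Members with a found stem-loop rose in 22 of 42 cases and those without in 11 of 22. Of the 50 members at 10 CPM or more, 26 rose, with log2 changes from -0.04 to 0.74 over the 50.

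Among linker histones, Hist1h1e (ENSMUSG00000051627.3, mm10 chromosome 13, 23620629 to 23622558, minus strand) had the largest change of the 5 above 10 CPM. It had 408 and 425 CPM in the knockout and 325 and 320 CPM in wild type. The groups did not overlap, and the log2 change was 0.37 (SE 0.0342; adjusted p = 1.12e-07 by edgeR). Its annotated exons overlap those of the H2B gene Hist1h2be on the same strand, so reads there may be assigned to either. Hist1h1c had 502 and 521 CPM in the knockout and 434 and 439 CPM in wild type, and rose by 0.23 (adjusted p = 0.00128). Hist1h1d rose by 0.11 (adjusted p = 0.0329), a call lost without any 1 library of either group (adjusted p between 0.0914 and 0.169). Hist1h1a, the most abundant H1 mRNA, had 694 CPM in both knockout libraries and 709 and 693 CPM in wild type, a log2 change of -0.01 that did not pass (adjusted p = 0.767). Hist1h1b had a log2 change of 0.12 (adjusted p = 0.196).

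Core histone genes followed with changes of similar size. The H2A gene Hist1h2ak had 157 and 161 CPM in the knockout and 142 and 130 CPM in wild type (log2 change 0.23, adjusted p = 0.00058). The H2B gene Hist1h2bk had 211 and 213 CPM in the knockout and 178 CPM in both wild-type libraries (log2 change 0.25, adjusted p = 1.95e-05). Both rose, and their groups did not overlap. The H3 gene Hist1h3f had 215 and 222 CPM in the knockout and 182 and 173 CPM in wild type (log2 change 0.30, adjusted p = 2.77e-06). The H4 gene Hist1h4h had 317 CPM in both knockout libraries and 288 and 270 CPM in wild type (log2 change 0.18, adjusted p = 0.00133). The leading gene of H2B, Hist1h2bb, had 387 and 386 CPM in the knockout and 370 CPM in both wild-type libraries, and did not pass (log2 change 0.06, adjusted p = 0.173). The leading H4 gene, Hist1h4d, had a log2 change of 0.03 (adjusted p = 0.488). The H2B genes Hist1h2bc and Hist1h2bg, next in level, had changes of 0.17 (adjusted p = 0.000972) and 0.06 (adjusted p = 0.179). Among the other abundant members, Hist1h3e rose by 0.15 (adjusted p = 0.0028), a call lost without wild-type replicate 2 or knockout replicate 2, and Hist1h2ab, Hist1h3b and Hist1h4f did not pass.

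**Figure D2:**
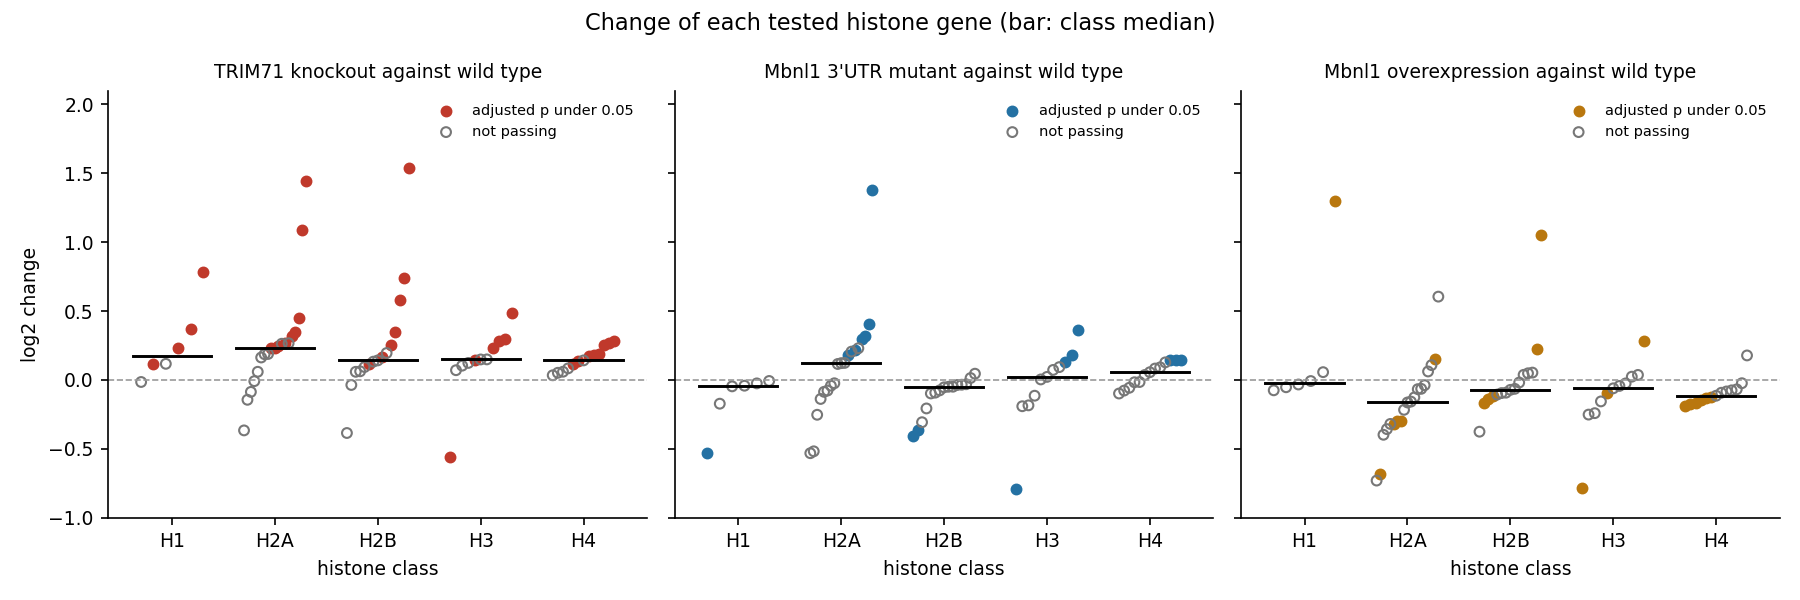
Log2 change of each tested histone gene by class (horizontal axis) in the knockout, the mutant and overexpression against wild type, filled where the adjusted p was under 0.05 and with a bar at the class median. In the knockout 33 of 64 rose and 1 fell, while the mutant had 12 higher and 4 lower and overexpression 5 higher and 15 lower.

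Variants of low level that are known from germ cells were among the members with the larger rises in the knockout. Hist1h2aa (ENSMUSG00000060081.1, mm10 chromosome 13, 23934462 to 23934851, plus strand) and Hist1h2ba (ENSMUSG00000050799.3, 23933773 to 23934156, minus strand) form the divergent pair shown above, and encode the H2A and H2B variants TH2A and TH2B of testis and oocyte. Hist1h2aa had 3.05 and 3.38 CPM in the knockout and 1.63 and 1.38 CPM in wild type. The rise was 2.13-fold (log2 change 1.09, SE 0.153, adjusted p = 1.50e-05). Hist1h2ba had 1.75 and 1.87 CPM in the knockout and 0.659 and 0.584 CPM in wild type, and rose 2.9-fold (log2 change 1.54, SE 0.2, adjusted p = 6.50e-06). Behind these values stood 262 and 278 counts of Hist1h2aa and 150 and 154 counts of Hist1h2ba in the knockout. Neither gene passed in mutant or overexpression cells, with 0.411 to 1.21 CPM in all 4 libraries. In the direct contrasts both were higher in the knockout than in the mutant (log2 changes 1.61 and 1.84, adjusted p = 2.45e-07 and 9.74e-07, edgeR) and than in overexpression (1.49 and 1.48, adjusted p = 2.89e-07 and 4.32e-06).

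Hist1h1t (ENSMUSG00000036211.4, mm10 chromosome 13, 23695814 to 23696725, plus strand), which encodes the testis linker histone H1t, differed between all groups. It had 5.59 and 5.50 CPM in the knockout, 2.14 and 2.32 CPM in the mutant and 8.57 and 7.28 CPM in overexpression, against 3.04 and 3.40 CPM in wild type. No pair of groups overlapped. The knockout gave a rise of 0.79 (SE 0.103, adjusted p = 6.89e-06) and overexpression one of 1.30 (SE 0.0997, adjusted p = 5.10e-09). In the mutant the log2 change was -0.53 (SE 0.115, adjusted p = 0.00368), a fall. The knockout stood 0.51 below overexpression on the log2 scale (log2 change -0.51, adjusted p = 0.00014). All of its 75-base windows are found in no other annotated gene, and its 3 calls against wild type held without any 1 library.

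Of the 3 genes of the Hist3 cluster on chromosome 11, 2 rose in the knockout and fell in the mutant. Hist3h2ba (ENSMUSG00000056895.4, mm10 58948920 to 58949533, plus strand), an H2B gene, had 28.8 and 29.1 CPM in the knockout, 12.8 and 14.1 CPM in the mutant and 17.5 and 18.3 CPM in overexpression, against 18.3 and 16.3 CPM in wild type. The log2 change was 0.74 in knockout cells (SE 0.0615, adjusted p = 2.80e-08) and -0.36 in mutant cells (SE 0.0644, adjusted p = 0.000657), a rise and a fall. Its change of 0.05 in overexpression did not pass. The neighbouring pseudogene Hist3h2bb-ps had 8.13 and 8.24 CPM in the knockout, 4.002 and 4.27 CPM in the mutant and 6.56 and 6.25 CPM in overexpression, against 5.51 and 5.44 CPM in wild type. It rose by 0.58 in the knockout, fell by 0.40 in the mutant and rose by 0.23 in overexpression (adjusted p = 7.02e-06, 0.00202 and 0.0192). The overexpression call was lost without wild-type replicate 1, wild-type replicate 2 or overexpression replicate 1. Between knockout and mutant the difference was 1.11 for Hist3h2ba (adjusted p = 1.94e-10) and 0.99 for Hist3h2bb-ps (adjusted p = 1.44e-08). Hist3h2a, the H2A gene of the cluster, overlaps exons of Trim17 and passed in no comparison with wild type.

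**Figure D3:**
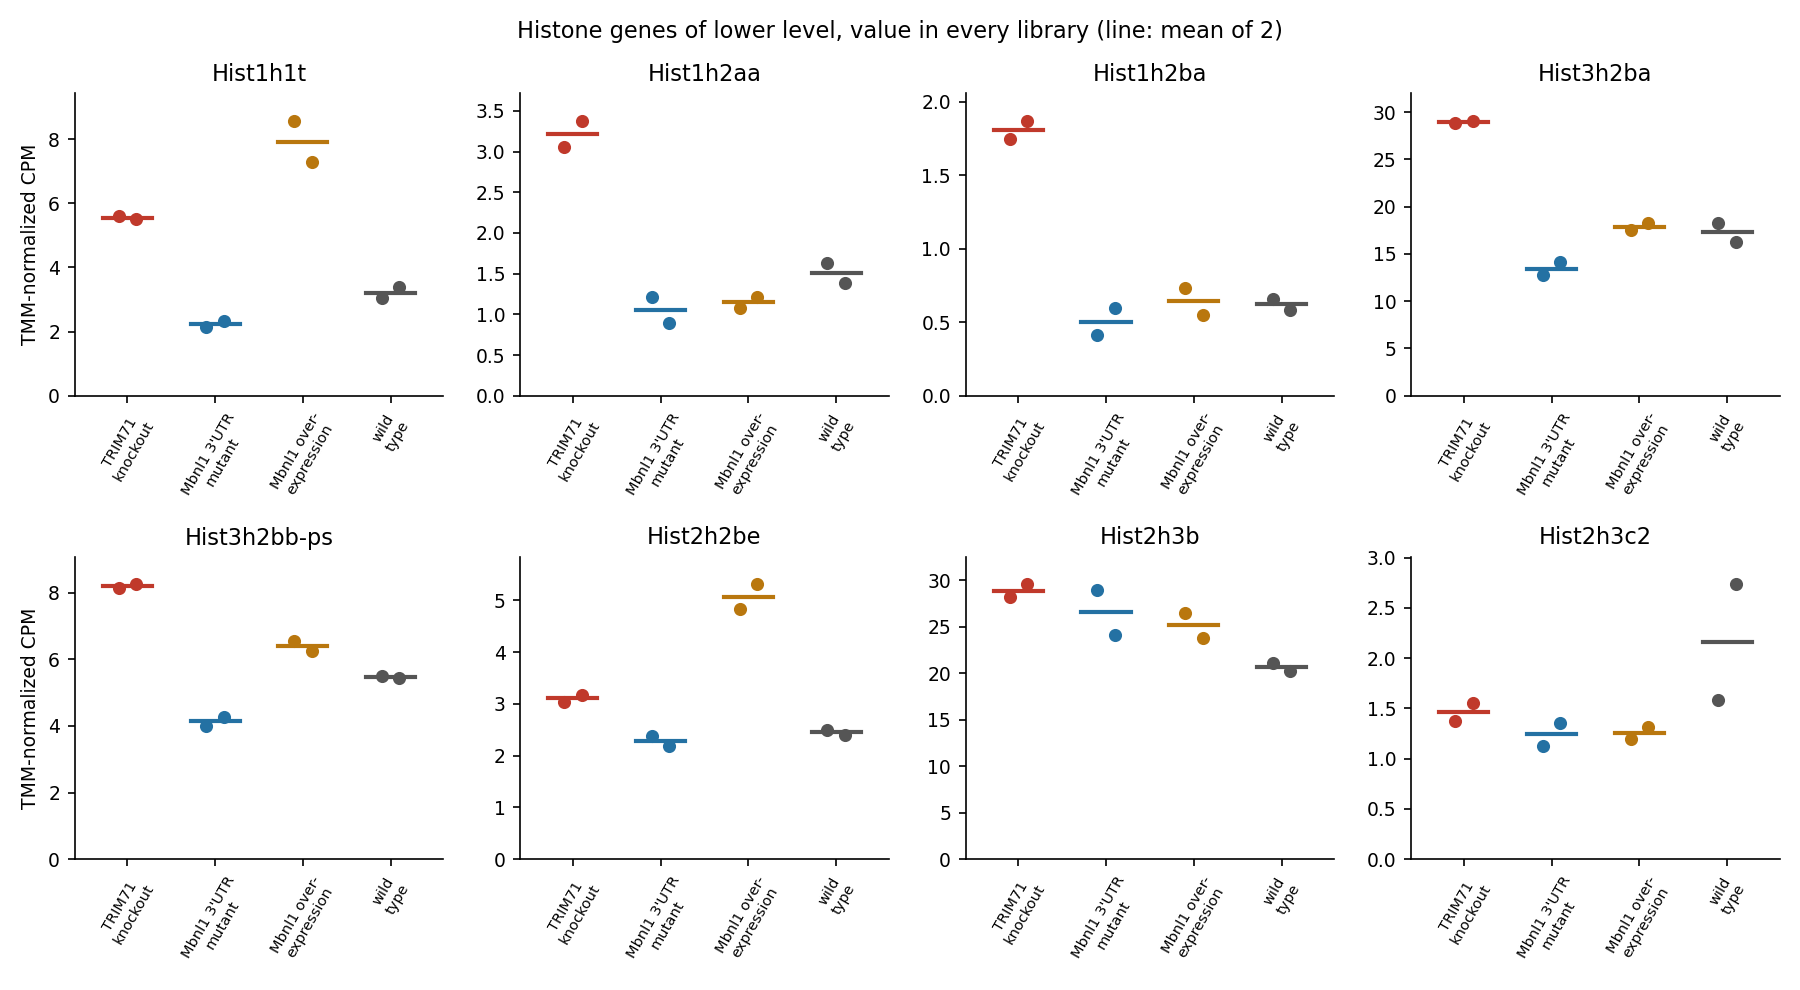
TMM-normalized CPM (vertical axes, from 0) of 8 histone genes of lower level in each of the 8 libraries, with the line at the mean of 2. Hist1h2aa and Hist1h2ba are high in the knockout alone, Hist1h1t and Hist2h2be are highest in overexpression, and Hist2h3c2 is raised in 1 wild-type library, at 2.73 CPM against 1.58 CPM in the other.

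Members of the Hist2 cluster differed from one another. Hist2h2be (ENSMUSG00000068854.7, mm10 chromosome 3, 96221119 to 96223738, plus strand), an H2B gene with no stem-loop found in its annotated transcripts, had 3.04 and 3.18 CPM in the knockout, 2.38 and 2.19 CPM in the mutant and 4.83 and 5.31 CPM in overexpression, against 2.496 and 2.40 CPM in wild type. Overexpression raised it 2.07-fold (log2 change 1.05, adjusted p = 2.12e-07). Its rise of 0.34 in the knockout (adjusted p = 0.0187) was lost without wild-type replicate 2 or knockout replicate 2. Hist2h2ac, the H2A gene it faces, rose in all 3 groups by less. It had 67.8 and 66.5 CPM in the knockout, 66.7 and 65.1 CPM in the mutant and 62.5 and 63.9 CPM in overexpression, against 57.8 and 55.6 CPM in wild type (log2 changes 0.24, 0.22 and 0.16, adjusted p = 5.58e-05, 0.000717 and 0.00235). The H3 gene Hist2h3b was called higher in all 3 groups as well, with log2 changes of 0.48, 0.36 and 0.28, but none of its 75-base windows is unique. Its calls in the mutant and in overexpression were lost without wild-type replicate 2, that in the mutant also without wild-type replicate 1 and that in overexpression also without overexpression replicate 1. The comparisons with wild type share the wild-type libraries, so a gene whose wild-type value is low or high tends to be called alike in all 3.

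Hist2h3c2, an H3 gene, was the 1 member called lower in the knockout, and was called lower in the mutant and in overexpression too (log2 changes -0.56, -0.79 and -0.78). The knockout libraries held 118 and 128 counts, the mutant libraries 93 and 112 and the overexpression libraries 107 and 114, against 125 and 206 in wild type. Without wild-type replicate 2 the changes were -0.11, -0.35 and -0.34 and passed in none (adjusted p = 0.695, 0.301 and 0.178). Hist1h2ao was called higher in the knockout and in the mutant (log2 changes 1.45 and 1.38), on 25 and 23 counts in the knockout and 23 and 22 in the mutant, against 7 and 9 in wild type. It met the rule on counts through libraries other than those of wild type, and 6.90% of its windows are unique. The knockout call was lost without wild-type replicate 1, and the mutant call without any 1 library of either group.

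The mutant showed no common shift. Of 64 members tested, 12 rose and 4 fell, where 16% of all genes were called, 8.32% higher and 7.69% lower. The median log2 change was -0.02 for the members and -0.01 for all genes. By class, 6 of 19 H2A, 0 of 15 H2B, 3 of 11 H3, 3 of 13 H4 and 0 of 6 H1 genes were called higher, and no difference between classes was tested. Both mutant libraries lay above both wild-type libraries for 15 members, where 24.9% of all genes did so, and below them for 13, where 27% did so. The count of rises was 5 without wild-type replicate 2, and the count of falls was 18 without mutant replicate 2. At an unadjusted p under 0.05, and by DESeq2 at an adjusted one, no H1 or H2B gene was higher either.

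Hist1h2ak had 175 and 164 CPM in the mutant and 142 and 130 CPM in wild type (log2 change 0.32, adjusted p = 0.000102). Hist1h2ai had 67.04 and 60.98 CPM in the mutant and 52.5 and 51.4 CPM in wild type (log2 change 0.30, adjusted p = 0.000138). Both H2A genes rose without overlap, and 10.7% of the windows of Hist1h2ai are unique. Hist1h2al, an H2A pseudogene, had 54.0 and 48.1 CPM in the mutant and 40.6 and 36.4 CPM in wild type (log2 change 0.41, adjusted p = 0.000175). The H3 gene Hist1h3f had 204 and 199 CPM in the mutant and 182 and 173 CPM in wild type (log2 change 0.18, adjusted p = 0.00164). The partners that face Hist1h2ak and Hist1h2ai, the H2B genes Hist1h2bn and Hist1h2bl, did not pass. The linker histones Hist1h1a, Hist1h1c, Hist1h1d and Hist1h1e had log2 changes between -0.05 and -0.01 and did not pass. Hist1h1b had 374 and 436 CPM in the mutant and 457 and 455 CPM in wild type, and did not pass either (log2 change -0.17, adjusted p = 0.136).

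The mutant libraries also differed most from each other. Over the 50 members at 10 CPM or more, the median absolute log2 difference between the libraries of a group was 0.149 in the mutant, 0.025 in the knockout, 0.065 in overexpression and 0.064 in wild type. Over all 8741 genes of that level the medians were 0.058, 0.030, 0.041 and 0.050. In the mutant 12 of the 50 members differed by more than 0.25, and 38 were higher in replicate 2. Replicate 2 was higher for 37 of the 50 in overexpression, 29 in the knockout and 5 in wild type. The median log2 difference of replicate 2 from replicate 1 was 0.134 in the mutant, 0.059 in overexpression, 0.011 in the knockout and -0.063 in wild type. The wild-type libraries thus also differed in 1 direction for most members. The H3 gene Hist1h3h had 67.7 and 103 CPM in the mutant libraries, against 102 and 92.5 CPM in wild type. The short noncoding RNAs Rmrp and Rprl3, given as examples from a longer list, also differed between the mutant libraries. Rmrp had 987 and 3210 CPM and Rprl3 27.0 and 122 CPM in the mutant, against 1740 and 1612 CPM and 48.6 and 44.8 CPM in wild type, and their part in the histone values was not tested. In wild type the largest difference was that of Hist1h4m, with 15.6 and 8.74 CPM.

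**Figure D4:**
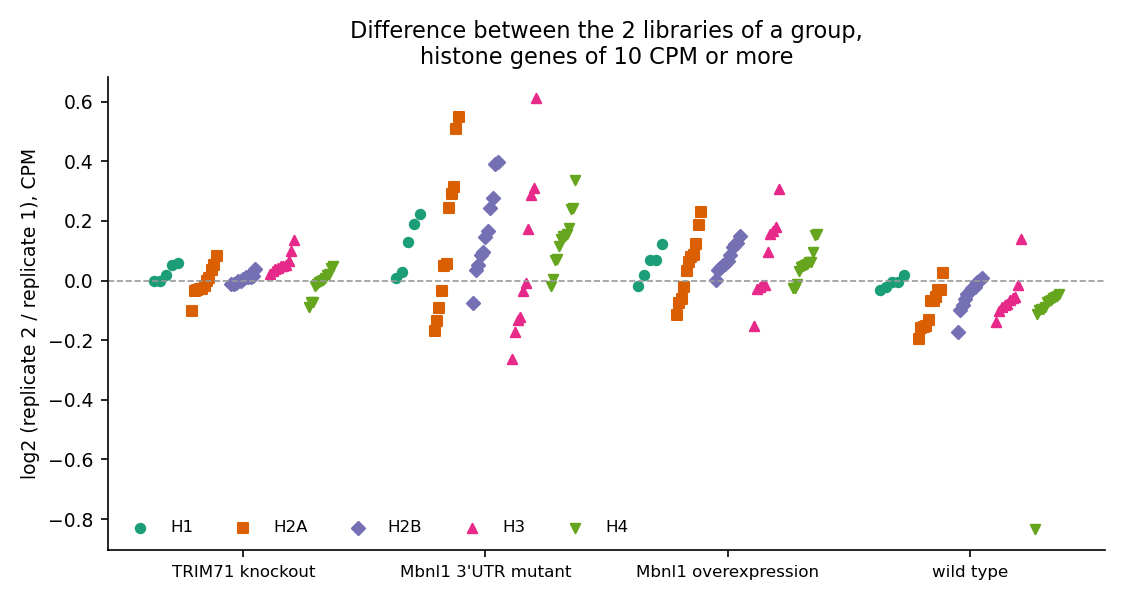
Log2 ratio of the libraries of each group (replicate 2 over replicate 1, vertical axis) for the 50 histone genes at 10 CPM or more, with a marker for each class. The mutant spreads most, with a median absolute difference of 0.149 against 0.025 in the knockout.

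In overexpression the members leaned lower by a small amount. Of 64 tested, 5 rose and 15 fell, where 54.8% of all genes were called, 27.7% higher and 27.2% lower. The share of members called was thus below that of all genes. The median log2 change was -0.09 for the members and -0.01 for all genes. Falls were found in 4 of 19 H2A, 3 of 15 H2B, 2 of 11 H3 and 6 of 13 H4 genes and in no H1 gene. Both overexpression libraries lay below both wild-type libraries for 40 members, where 38.8% of all genes did so, and above them for 8, where 37.7% did so. The count of rises was 3 without wild-type replicate 2 or overexpression replicate 1. The count of falls was 7 without wild-type replicate 1, 4 without overexpression replicate 1 and 27 without either mutant library. Scaled by library size alone it was 9, with a median of -0.03. Abundant noncoding RNAs without a tail were low in the same libraries, with negative log2 changes in 13 of 13 (median -0.34), 10 of them below both wild-type libraries in both, and a summed level of 16700 to 17450 CPM in overexpression against 20250 to 20370 CPM in wild type. Their part in the histone values was not tested.

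Chromosome 13 genes outside the histone set were lower as well. The 616 other tested genes of chromosome 13 had a median log2 change of -0.12 in overexpression, with 105 higher and 225 lower, against -0.09 for the 53 tested members there. Relative to those genes the median of these members was 0.03. In the knockout the other genes of chromosome 13 had a median of -0.03, against 0.16 for the members, and 15 other genes that lie between the ends of the Hist1 cluster had 0.06. In overexpression those 15 genes had a median of -0.05, with 3 higher and 2 lower. Chromosome 3 also leaned lower in overexpression, where its genes outside the histone set had a median of -0.08, with 184 higher and 266 lower. Such genes had medians of 0.04 on chromosome 11 and -0.03 on chromosome 6. In the mutant the medians were -0.02 for the members and the other genes of chromosome 13.

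Of the H4 genes, 6 of 13 fell in overexpression. Hist1h4h had 250 and 245 CPM in overexpression and 288 and 270 CPM in wild type (log2 change -0.17, adjusted p = 0.00186). Hist1h4i had 137 and 141 CPM in overexpression and 161 and 155 CPM in wild type (log2 change -0.19, adjusted p = 0.00125). Both fell without overlap between the groups. Among H2A genes, Hist1h2af had 35.7 and 37.3 CPM in overexpression and 47.8 and 41.7 CPM in wild type (log2 change -0.29, adjusted p = 0.000208), and Hist1h2an had a log2 change of -0.30 (adjusted p = 0.00527), lost without overexpression replicate 1. The abundant genes Hist1h4d, Hist1h2bc, Hist1h3e and Hist1h2ab were also called lower, by -0.13, -0.11, -0.10 and -0.32, but each of these calls was lost without overexpression replicate 1 and without wild-type replicate 1. The linker histones Hist1h1a, Hist1h1b, Hist1h1c, Hist1h1d and Hist1h1e had log2 changes between -0.07 and 0.06 and did not pass.

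The direct contrasts come from the same fit, in which the wild-type libraries enter the scaling and the estimate of spread but not the log2 change itself. The knockout against the mutant had 26 members higher (40.6%) and none lower, and a median of 0.16. Of all genes 45.7% were called, 24.4% higher and 21.3% lower. At an unadjusted p under 0.05 (edgeR) 2 members were lower, Hist1h2af and Hist2h2ab, and by DESeq2 at an adjusted p under 0.05 none was. The count of rises was 16 without knockout replicate 1 and 14 without knockout replicate 2. Of the 26 rises, 11 were among 15 H2B and 5 among 6 H1 genes, against 2 among 19 H2A genes. Overexpression against the mutant had 4 members higher (6.25%) and 24 lower (37.5%), with 9 of 19 H2A and 9 of 13 H4 genes lower. In this contrast 52.1% of all genes were called, 26.7% higher and 25.4% lower. The knockout against overexpression had 39 members higher (60.9%) and 2 lower, and a median of 0.26. Here 54.8% of all genes were called, 27.5% higher and 27.2% lower. The 2 lower members were Hist1h1t and Hist2h2be. Hist1h2ah, an H2A gene, had 9.80 and 10.4 CPM in the knockout and 6.37 and 7.28 CPM in overexpression, a log2 difference of 0.56 (adjusted p = 0.00211).

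Divergent H2A and H2B genes are a hallmark of these clusters. The annotation holds 13 such pairs with starts 173 to 306 bases apart, of which 12 had both genes tested. Of the 12, the knockout had 10 pairs with changes of the same sign, the mutant had 7 and overexpression 9. Most members shared a sign in any case, with 56 of 64 positive in the knockout and 49 of 64 negative in overexpression, so these counts say nothing particular to pairs. Both genes were called higher in 4 pairs in the knockout and in 1 pair in overexpression, and in none in the mutant, where 33, 5 and 12 of the 64 members were called higher one by one. These were Hist1h2ah with Hist1h2bk, Hist1h2ac with Hist1h2bc, Hist1h2aa with Hist1h2ba and Hist2h2ac with Hist2h2be in the knockout, and Hist2h2ac with Hist2h2be in overexpression. A shared sign did not mean equal size. In overexpression Hist2h2be changed by 1.05 and Hist2h2ac by 0.16. The knockout call of Hist1h2ah was lost without any 1 library of either group, that of Hist2h2be as given above.

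Of 30 tested genes of histone transcription and 3' end processing, 8 rose and 5 fell in the knockout, 4 rose and 1 fell in the mutant, and 11 rose and 8 fell in overexpression, with medians within 0.05 of 0 on the log2 scale. In knockout cells 26.7% were thus higher and 16.7% lower, where 24.2% and 20.9% of all genes were. For the mutant these shares were 13.3% and 3.33%, where all genes had 8.32% and 7.69%. For overexpression they were 36.7% and 26.7%, where all genes had 27.7% and 27.2%. Npat, the coactivator of the clustered genes, had 134 CPM in both knockout libraries, 117 and 110 CPM in the mutant and 101 and 98.6 CPM in overexpression, against 105 and 111 CPM in wild type. It rose by 0.31 in the knockout (SE 0.0391, adjusted p = 4.66e-06) and fell by 0.11 in overexpression (adjusted p = 0.0271), and its mutant change of 0.07 did not pass. Slbp had 150 CPM in both knockout libraries, 152 and 153 CPM in the mutant and 158 and 162 CPM in overexpression, against 147 and 145 CPM in wild type. It rose by 0.13 in overexpression (adjusted p = 0.00253) and did not pass in the knockout (log2 change 0.04) or the mutant (0.06). Casp8ap2, which encodes the processing factor FLASH, rose by 0.14 in the knockout and 0.16 in the mutant (adjusted p = 0.00917 and 0.0101).

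The U7 snRNP genes Lsm10 and Lsm11 stood at 11.4 to 15.8 CPM in all libraries, and of their 6 changes that of Lsm10 in overexpression passed (0.17, adjusted p = 0.0328). Zfp473, a zinc finger protein of the U7 complex, fell in the knockout and in overexpression (log2 changes -0.11 and -0.41, adjusted p = 0.0392 and 1.52e-07). Sympk, the scaffold of the cleavage complex, rose by 0.15 in overexpression (adjusted p = 0.000939), and Eri1, an exonuclease that trims histone mRNA ends, passed in none. Lsm1, a subunit of the ring that binds mRNA in decay, fell in all 3 groups, by 0.28, 0.13 and 0.26 on the log2 scale (adjusted p = 1.39e-05, 0.033 and 1.96e-05). The elongation factor genes Nelfe and Nelfcd rose in overexpression by 0.46 and 0.71.

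**Figure D5:**
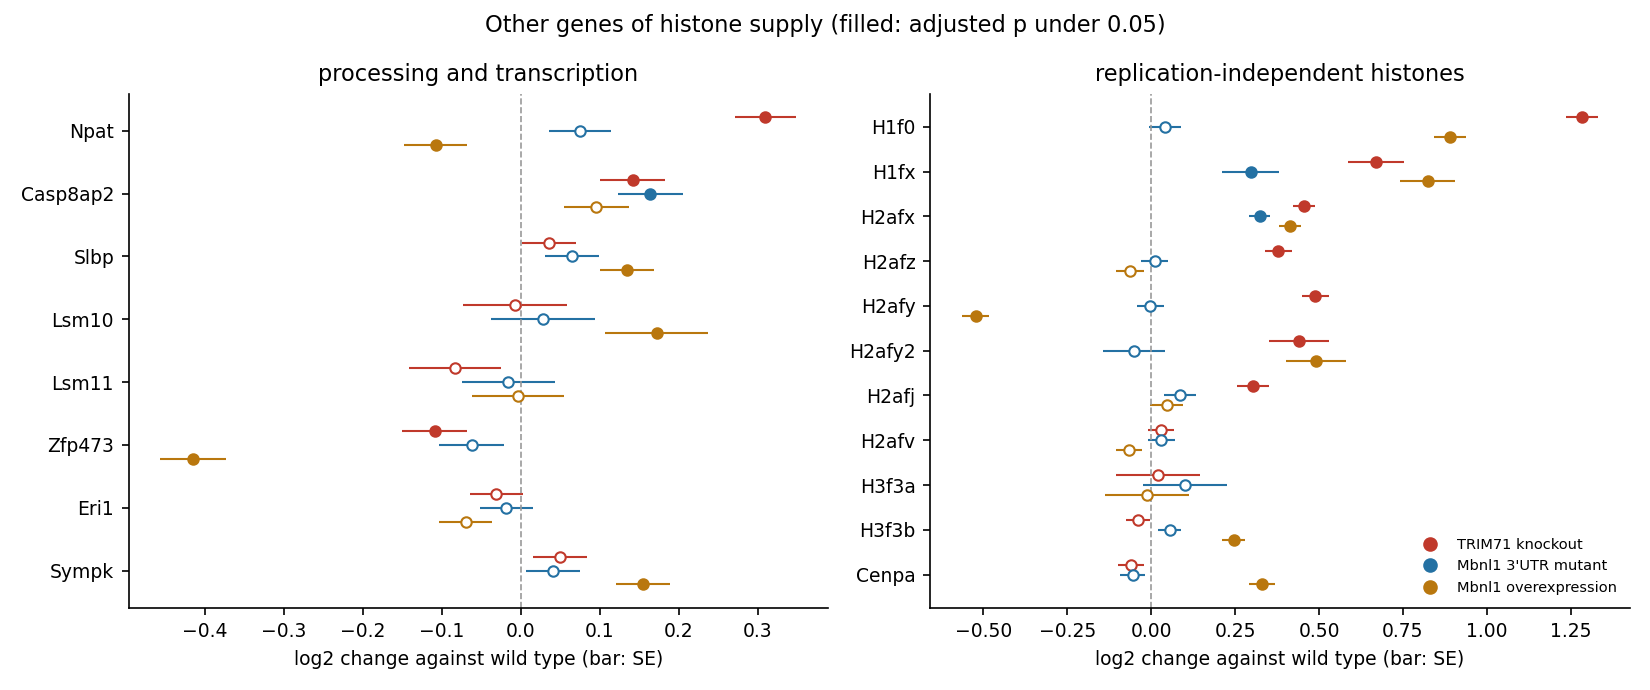
Log2 change against wild type with its SE (horizontal axes) of genes of histone transcription and processing and of replication-independent histone genes, filled where the adjusted p was under 0.05. Npat is at 0.31 in the knockout, -0.11 in overexpression and 0.07 in the mutant, and H1f0 is at 1.28 in the knockout and 0.89 in overexpression.

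Most histone genes outside the clusters make polyadenylated mRNA through the cell cycle, which was not checked for each gene of this list. Of 12 tested, 7 rose and none fell in the knockout, 2 rose and none fell in the mutant, and 6 rose and 1 fell in overexpression. Rises thus made up 58.3%, 16.7% and 50% of the list, against 24.2%, 8.32% and 27.7% of all genes, and no difference between the groups was tested. No fall in the knockout or the mutant was seen at an unadjusted p under 0.05 or by DESeq2 either. H1f0, the replacement linker histone H1.0, had 90.0 and 90.9 CPM in the knockout, 39.6 and 36.8 CPM in the mutant and 70.4 and 67.2 CPM in overexpression, against 35.7 and 38.6 CPM in wild type. Knockout cells showed a rise of 1.28 (SE 0.0469, adjusted p = 9.39e-13) and overexpression cells one of 0.89 (adjusted p = 3.57e-11). H2afx, the variant phosphorylated at DNA breaks, rose in all 3 groups by 0.46, 0.32 and 0.41. H2afz, which encodes H2A.Z, had 923 and 924 CPM in the knockout and 723 and 699 CPM in wild type (log2 change 0.38, adjusted p = 6.88e-07), and did not pass in the mutant or overexpression. H2afy, which encodes macroH2A1, rose by 0.49 in the knockout and fell by 0.52 in overexpression (adjusted p = 2.41e-08 and 5.96e-09). H3f3b rose by 0.25 and Cenpa by 0.33 in overexpression, and neither passed in the knockout or the mutant.

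Genes of DNA replication and the histone chaperones give the S phase setting. Of 45 replication genes tested, 10 rose and 5 fell in the knockout, 10 rose and none fell in the mutant (2 fell at an unadjusted p under 0.05, none by DESeq2), and 18 rose and 5 fell in overexpression. The rises were 22.2%, 22.2% and 40% of the list, against 24.2%, 8.32% and 27.7% of all genes. E2f2, an S phase transcription factor, rose in all 3 groups by 0.49, 0.47 and 0.86. Pcna, the sliding clamp of DNA polymerase, rose by 0.51 in overexpression (adjusted p = 7.43e-09) and had a log2 change of -0.03 in the knockout. Their summed level was 9574 to 9600 CPM in the knockout, 9923 to 9941 CPM in the mutant and 9980 to 10080 CPM in overexpression, against 9370 to 9566 CPM in wild type. Both libraries of each altered group lay above both wild-type libraries, the knockout by the least. Of 29 chaperone genes, 3 rose and 7 fell in the knockout, 6 rose and 2 fell in the mutant, and 9 rose and 9 fell in overexpression. Rises made up 10.3%, 20.7% and 31.0% of the chaperone list and falls 24.1%, 6.90% and 31.0%, where 20.9%, 7.69% and 27.2% of all genes fell. Chaf1a and Chaf1b, subunits of the assembly factor CAF-1, rose by 0.15 and 0.27 in the knockout, and Nap1l1, an H2A-H2B chaperone, fell by 0.25. Of 13 abundant noncoding RNAs without a tail, none passed in the knockout or the mutant, also at an unadjusted p under 0.05 and by DESeq2. In overexpression 2 fell, Rnu11 and Rnu12 (log2 changes -0.94 and -0.55), and the other 11, with negative log2 changes, did not pass.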

How the data were processed

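Stranded total RNA-seq (75 nt paired-end) of 8 libraries, 2 per group, was aligned to mm10 with STAR 2.5.0, per the submitters' processing notes. The deposited values are whole read counts per gene, made by the authors and not normalized; the sources used here give no counter, annotation release, strand setting or treatment of multi-mapping reads. Genes were matched to GENCODE M21 by identifier.

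Counts were filtered with filterByExpr (18055 of 27979 genes with a count), scaled by TMM and fitted across 4 groups with edgeR 4.0.16 (R 4.3.3; quasi-likelihood, robust, 4 residual degrees of freedom, biological coefficient of variation 4.17%). Genes were called at a Benjamini-Hochberg adjusted p under 0.05 over all genes. Levels are CPM. Class sums were not tested. Of 65 members, 64 were tested (Hist1h2br was filtered out). Intervals and floors from counts cover counting error only.

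Members, gene lists and tests were chosen with earlier results of these data known. The rule names the 3 most abundant members per class, the 5 highest and 5 lowest called members per comparison with wild type (3 and 3 in the other contrasts) at a mean log2 CPM of at least 1, 8 processing genes, and up to 4 called members per list. It gives 26 members; 15 others with values were named after those were seen. Alternatives covered scaling, filters, DESeq2 1.42.0, the groups fitted, the replicate block, single libraries, and, chosen after seeing the data, sequence uniqueness, chromosome 13 and pseudogenes. Simulated data were used to test the procedure: in the knockout comparison it recovered 80% of 2-fold changes, with 3 false calls among unchanged genes (17686 genes in all).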

Additional observations from a re-analysis of the deposited data

How the results depend on the processing

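With 1 library left out in turn, the rises in the knockout stayed between 23 and 42, the falls between 0 and 1 and the median between 0.13 and 0.20; the 1 fall became 0 with library size only, with 2 groups only, by DESeq2 and among members with mostly unique windows. In the mutant the rises ranged from 5 to 16 and the falls from 3 to 18; rises numbered 7 among members with mostly unique windows, and falls 7 without a filter on low counts. In overexpression the rises ranged from 3 (without wild-type replicate 2 or overexpression replicate 1) to 6 and the falls from 4 to 27. With library size only, overexpression had 8 rises, 9 falls and a median of -0.033, all genes shifted by 0.054, and the log2 ratio of the class sums was 0.028 for H1 and -0.016 for H2B. Falls numbered 6 among members with mostly unique windows, and the median less that of chromosome 13 was 0.030. The called members ranged from 14 to 38 for knockout against mutant, from 19 to 38 for overexpression against mutant and from 35 to 51 for knockout against overexpression; among members with mostly unique windows the last 2 counts were 16 and 26.

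Of 1840 alternative values of the named members, 1657 kept direction and call, 87 lost a call, 60 gained one and 36 changed sign. With library size only, overexpression gave Hist1h1a 0.0014, Hist1h1b 0.046, Hist1h1e 0.022, Hist1h2ak 0.018 and Hist1h2bg 0.036. With 2 groups only, Hist1h1b was at 0.0011. In the mutant Hist1h1c was at 0.0055 by DESeq2 and 0.0026 with median-ratio size factors. Leaving out 1 library gave, in the knockout, Hist1h1a -0.030 to 0.0036, Hist1h4d -0.013 to 0.085, Hist1h2af -0.035 to 0.16 and Hist1h4m -0.27 to 0.56. In the mutant it gave Hist1h1c -0.10 to 0.086, Hist1h1d -0.088 to 0.039, Hist1h2ab -0.18 to 0.12, Hist1h2an -0.25 to 0.064, Hist1h2bb -0.078 to 0.017, Hist1h2bg -0.070 to 0.0039, Hist1h3h -0.52 to 0.091, Hist1h4a -0.069 to 0.044, Hist1h4d -0.064 to 0.035, Hist1h4f -0.27 to 0.062, Hist1h4m -0.27 to 0.56 and Hist4h4 -0.13 to 0.018. In overexpression it gave Hist1h1b -0.068 to 0.064, Hist1h2ak -0.10 to 0.032, Hist1h2ba -0.16 to 0.24, Hist1h3f -0.0016 to 0.079, Hist1h4m -0.17 to 0.66 and Hist3h2ba -0.033 to 0.14. None of these had been called in that comparison. The causes were not tested.

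Same-numbered libraries did not deviate together (correlations from -0.0343 to 0.06), so the numbers give no pairing. With the replicate number as a block, 33 members rose and 1 fell in the knockout, 11 rose and 5 fell in the mutant, and 5 rose and 15 fell in overexpression, with medians of 0.17, -0.03 and -0.09; the other contrasts had 26 (knockout against mutant), 29 (overexpression against mutant) and 44 (knockout against overexpression) called.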
